A study of Mus musculus with 16 samples.

Results

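The transcripts of 41 autophagy and lysosome genes were followed in C2C12 myotubes with and without electrical pulse stimulation (EPS). C2C12 is an established mouse myoblast line whose cells fuse into contractile myotubes, and EPS drives contraction by passing current through the culture medium. The genes were chosen by their known function, with earlier results of these data known, so shares of them called below are descriptive. Matching by mouse symbol found all 41 among the 48432 gene identifiers of the deposited table. They cover initiation and phagophore growth (10 genes), the conjugation of ATG8 proteins to lipid (11), cargo receptors (4) and the lysosome (13), together with the transcription factors of the MiT/TFE family (3). EPS myotubes were differentiated for 5 days and received pulses of 6 ms at 1 Hz and 2.75 V/mm, with the field polarity switched at 0.5 Hz. Control myotubes came from the same line and differentiation and were not stimulated. There were 4 libraries of total cellular RNA in each group. The length of the stimulation is not stated in the labels. They also do not tell whether each library had its own culture, so the p-values below reflect variation among libraries that could be technical.

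Macroautophagy encloses cytoplasm or organelles in a double membrane that grows from a cup, the phagophore, and fuses with the lysosome. The ULK1 kinase complex and the lipid kinase complex built on Beclin 1 start the cup, WIPI proteins read the lipid it makes, and an enzyme chain attaches the small ATG8 proteins (the LC3 and GABARAP families) to the growing membrane, where cargo receptors bind them. In skeletal muscle this pathway clears damaged mitochondria and proteins after exercise and during fasting, and the transcription factors TFEB, TFE3 and MITF switch on many of its genes together with those of lysosomal enzymes.

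All 41 genes passed the filter on low counts, and 13987 genes were tested. The 7 deep libraries held 12.6 to 20.7 M fragments (M, 1000000) and control replicate 2 held 0.354 M. In that library 3 fragments correspond to 8.52 CPM (counts per M fragments), against 0.138 to 0.241 CPM elsewhere, and the 41 genes had 1 to 578 fragments there. The first principal component, with 68.4% of the variance, set that library apart (209, with all others between -36.2 and -22.5). On the second, with 20.2% of the variance, EPS replicates 1 and 2 lay at -46.4 and -88.1, away from all other libraries (-1.63 to 45.2). EPS replicates 1 and 2 were both above EPS replicates 3 and 4 in 24 of the 41 genes and both below them in 6. The matching shares of all tested genes were not taken, so these counts do not set the members apart. In each library, the deviation of log2 CPM from the control mean correlated across genes with log2 exonic length at 0.0723, 0.125, -0.177 and -0.156 in EPS libraries 1 to 4 and at -0.0372, 0.149, -0.175 and -0.173 in control libraries 1 to 4. The part of transcript length in the differences below was not tested.

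Of the 41 genes, 3 were higher in EPS and none was lower at an adjusted p under 0.05 (edgeR's quasi-likelihood test, Benjamini-Hochberg over all genes tested). They were Gabarapl1, an ATG8 protein, Wipi2, which recruits the conjugation machinery to the phagophore, and Gla, the lysosomal alpha-galactosidase. This was 7.32% of the members, against 3.06% of all tested genes in either direction, 2.3% higher and 0.758% lower. At an unadjusted p under 0.05, 9 members were higher and 1 was lower, where 12.2% and 6.33% of all tested genes were. DESeq2 called 4 members higher and 0 lower, with 4.32% and 1.89% of all genes it tested. The labels state no pairing. Same-numbered EPS and control libraries deviated together in these same data, so a fit with the replicate number as a block was also made. EPS replicate 3 with control replicate 4 correlated at 0.253 and EPS replicate 4 with control replicate 3 at 0.231, close to the matched pairs. Calls with the block therefore rest on an inferred pairing. With the block, 6 members rose (Atg14, Ctsb and Ctsd in addition) and 1 fell, Tfeb. That was 17.1% of members against a larger background of 12.1% (7.31% higher, 4.78% lower). When the pair with the shallow control library was left out of this fit, 10 members were higher (Tfe3, Atp6v1h, Ctsl and Vps18 in addition) and 2 lower (Tfeb and Calcoco1), against 9.1% and 8.23% of all tested genes. The median log2 fold change of the 41 genes was 0.11, with 26 genes above 0 and 15 below, and over all tested genes it was 0.01, with 50.9% above 0. In RNA from whole cultures, fewer cells of a type and less RNA per cell cannot be told apart.

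**Figure D1:**
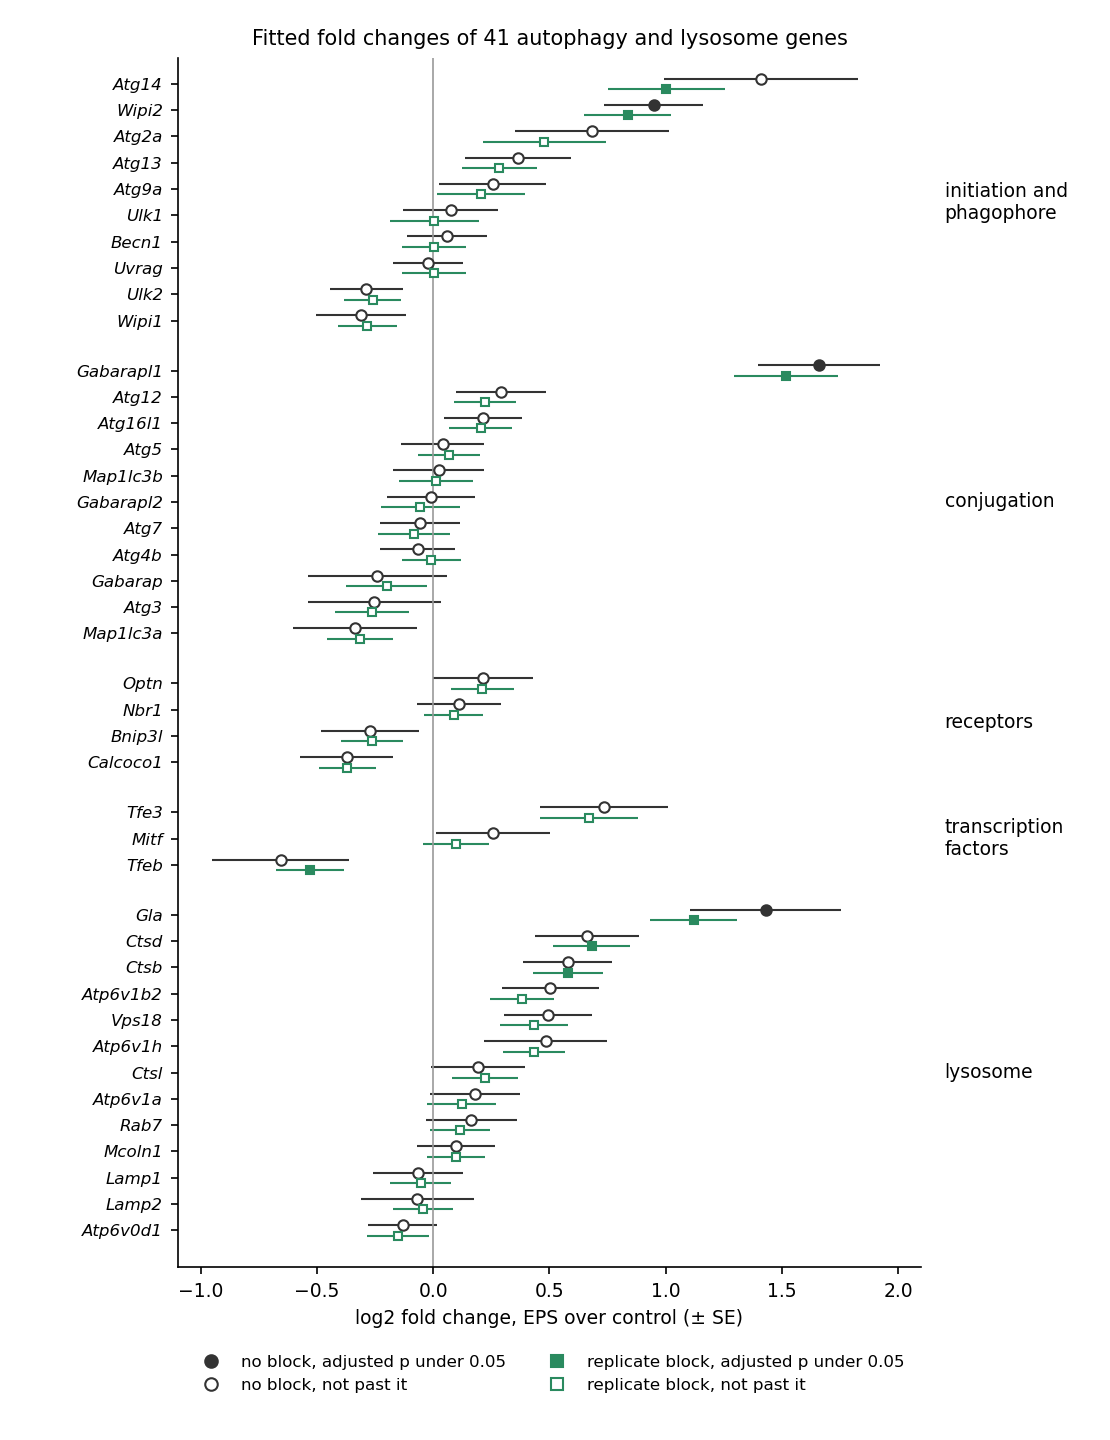
Log2 fold change of EPS over control (x axis) with its standard error for each of the 41 genes, by role; circles are the fit without and squares the fit with the replicate block, and filled symbols have an adjusted p under 0.05. Gabarapl1, Wipi2 and Gla are filled in both fits, while Atg14, Ctsb, Ctsd and Tfeb are filled only with the block.

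All EPS libraries lay above all control libraries in 5 of the 41 genes (Gabarapl1, Wipi2, Gla, Tfe3 and Ctsd), and in none did all EPS libraries lie below. Over all tested genes the shares were 9.32% and 4.83%. Against the 3 deep control libraries alone, 10 members were entirely above and 4 entirely below (Ulk2, Wipi1, Tfeb and Atp6v0d1), beside 13.8% and 11.0% of all tested genes. Taking libraries in pairs by replicate number, EPS was higher in all 4 pairs for 13 members and lower in all 4 for 5, against 22.0% and 15.8% of all tested genes. The log2 CPM of each gene was also taken relative to its mean over control replicates 1, 3 and 4. Control replicate 2 was not part of that reference. The median over the 41 genes was 0.22, 0.46, 0.07 and -0.05 in EPS libraries 1 to 4. In control libraries 1 to 4 it was -0.01, -0.30, 0.04 and -0.06. EPS replicates 1, 2 and 3 were above every control library, the first 2 by the most, and EPS replicate 4 lay among the controls.

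**Figure D2:**
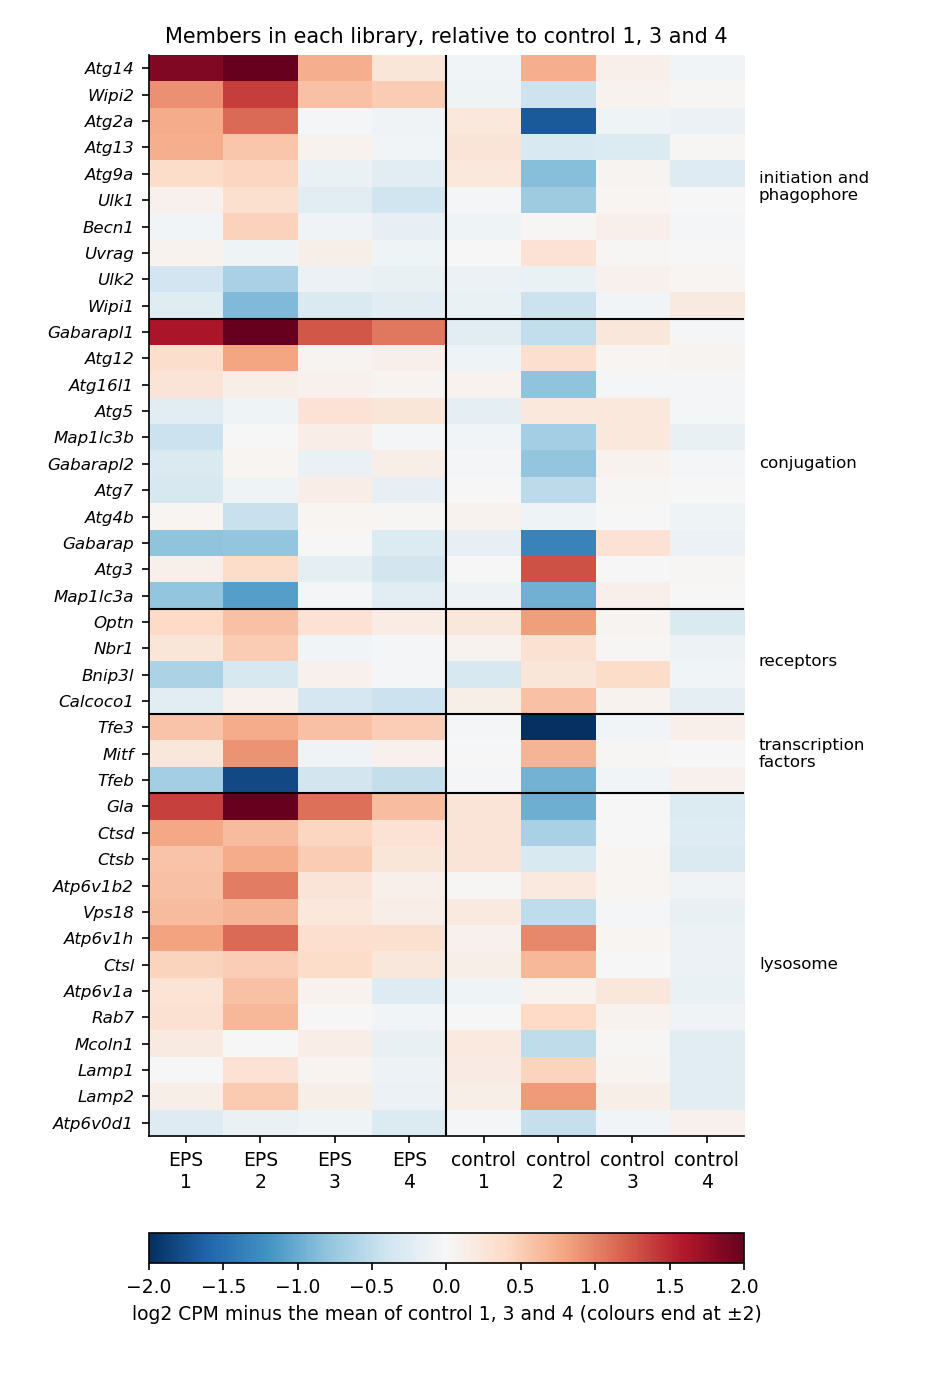
Log2 CPM of each gene (rows, by role) in each library (columns, EPS left of control) minus the mean of control replicates 1, 3 and 4, with red above and blue below that mean. Gabarapl1, Wipi2 and Gla are red in all 4 EPS libraries, most deeply in EPS replicate 2, and control replicate 2, the shallow library, departs from the other controls in both directions.

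Of the 10 initiation and phagophore genes, Wipi2 rose, Atg14 rose in the fit with the block, and 8 passed in neither fit. The level of Wipi2 was 149.0, 206.7, 118.6 and 112.5 CPM in EPS libraries 1 to 4, against 74.3, 59.7, 82.8 and 80.9 CPM in control libraries 1 to 4. Every EPS library thus lay above every control library, with EPS replicate 2 highest. The fitted fold change was 1.93 (log2 fold change 0.95, SE 0.21, adjusted p = 0.0423 by edgeR, and 0.0171 with the block). Leaving out EPS replicate 1 or any single control library took Wipi2 off the list of called genes (adjusted p of up to 0.143), and its log2 fold change was 0.57 without EPS replicates 1 and 2 (adjusted p = 0.0744). The gene (ENSMUSG00000029578) lies at chr5:142627698-142670588 of mm10, plus strand.

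Atg14, the subunit that directs the Beclin 1 lipid kinase complex to sites of autophagosome formation, had 55.7, 73.8, 25.7 and 18.3 CPM in EPS libraries and 14.9, 25.6, 16.7 and 14.9 CPM in control libraries. EPS replicates 1 and 2 were far above the rest. EPS replicates 3 and 4 lay above the deep controls by less, and the control value of 25.6 CPM rests on 9 fragments. Its log2 fold change was 1.41 (SE 0.42, adjusted p = 0.102 by edgeR), and it rose with the block (1.00, adjusted p = 0.0281) and by DESeq2 (adjusted p = 0.0287). Without EPS replicates 1 and 2 the log2 fold change was 0.46. The gene (ENSMUSG00000037526) lies at chr14:47540893-47570649, minus strand. UVRAG takes the place of ATG14 in another form of the same complex, and Uvrag was at 24.1 to 27.8 CPM in EPS libraries and 25.3 to 31.3 CPM in control libraries (log2 fold change -0.02).

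The remaining initiation genes had log2 fold changes between -0.31 and 0.68, with adjusted p of 0.306 or above. Wipi1, the close relative of Wipi2 and the most abundant gene of the list per length, had 129.5, 83.4, 125.0 and 133.0 CPM in EPS libraries and 140.2, 113.6, 147.6 and 174.3 CPM in control libraries. Its log2 fold change was -0.31 (SE 0.19, adjusted p = 0.431), so the fitted values of the 2 WIPI genes had opposite signs. Atg2a, which transfers lipid into the phagophore, was at 106.3, 139.1, 62.7 and 60.2 CPM in EPS libraries and at 73.1, 19.9, 59.6 and 58.7 CPM in control libraries (log2 fold change 0.68, SE 0.33). As for Atg14, EPS replicates 1 and 2 were high. For Atg2a, EPS replicates 3 and 4 lay among the deep controls, whereas for Atg14 they lay above them. The kinases Ulk1 and Ulk2 had log2 fold changes of 0.08 and -0.29, their partner Atg13 0.36, the scaffold Becn1 0.06 and the lipid scramblase Atg9a 0.26. Atg9a shares 31.8% of its exonic length with Gm29253 on the same strand, so its fragments cannot be assigned with certainty.

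**Figure D3:**
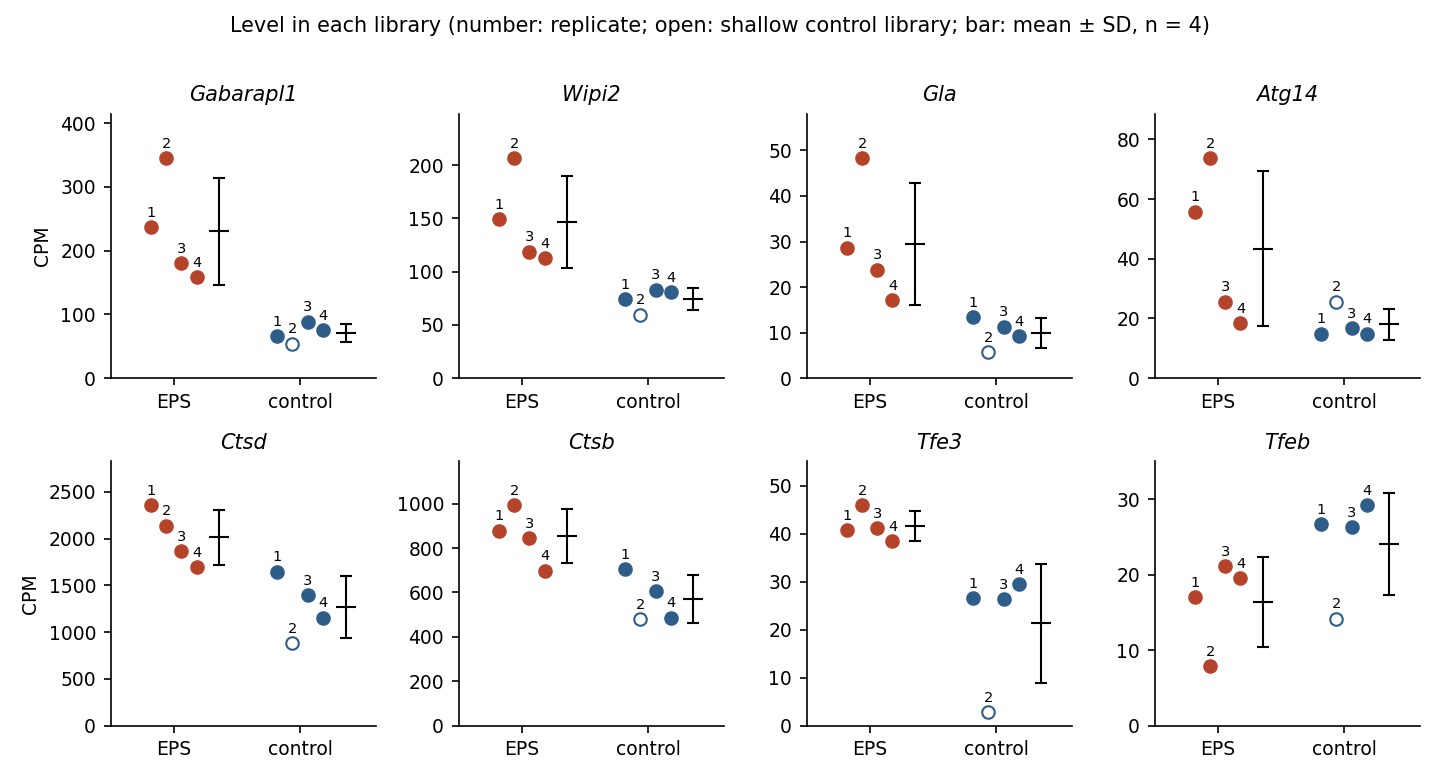
CPM (y axis, from 0) of 8 genes in each EPS library (left) and control library (right), numbered by replicate, with the mean ± SD of 4 libraries beside each group; the open circle is the shallow control replicate 2. The groups are separate for Gabarapl1, Wipi2, Gla, Ctsd and Tfe3, and they overlap for Atg14, Ctsb and Tfeb.

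Among the 11 conjugation genes, 1 rose, Gabarapl1, an ATG8 protein of the GABARAP branch. It had 236.7, 345.3, 179.8 and 158.1 CPM in EPS libraries 1 to 4 and 65.8, 54.0, 88.7 and 75.1 CPM in control libraries 1 to 4. The lowest EPS library was well above the highest control library. The fitted fold change was 3.16 (log2 fold change 1.66, SE 0.26, adjusted p = 0.00864 by edgeR). It was also past the threshold in limma on log2 FPKM, in DESeq2 and without EPS replicates 1 and 2, where the log2 fold change was 1.18. The exception among the libraries left out was control replicate 1, without which the adjusted p was 0.0509. Gabarapl1 (ENSMUSG00000030161, chr6:129533160-129542346, plus strand) shares 28.3% of its exonic length with 1700101I11Rik on the opposite strand. That transcript was at 0.936 CPM in EPS and 0.0648 CPM in control.

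The share of Gabarapl1 among the 5 ATG8 genes measured was also higher. In deposited FPKM, a level per length of transcript, Gabarapl1 made up 31.8%, 38.5%, 17.5% and 16.2% of the sum of the 5 genes in EPS libraries and 7.77%, 14.5%, 7.89% and 7.94% in control libraries. The shares did not overlap, and the highest control share came from the shallow library. Gabarap, the most abundant of the 5 on average in both groups, made up 36.5% to 52.0% of the sum in EPS and 40.5% to 61.9% in control. The sum itself was 418.6 ± 67.7 FPKM in EPS and 404.0 ± 112.2 FPKM in control (SD, n = 4 each), a difference well within the spread of libraries.

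**Figure D4:**
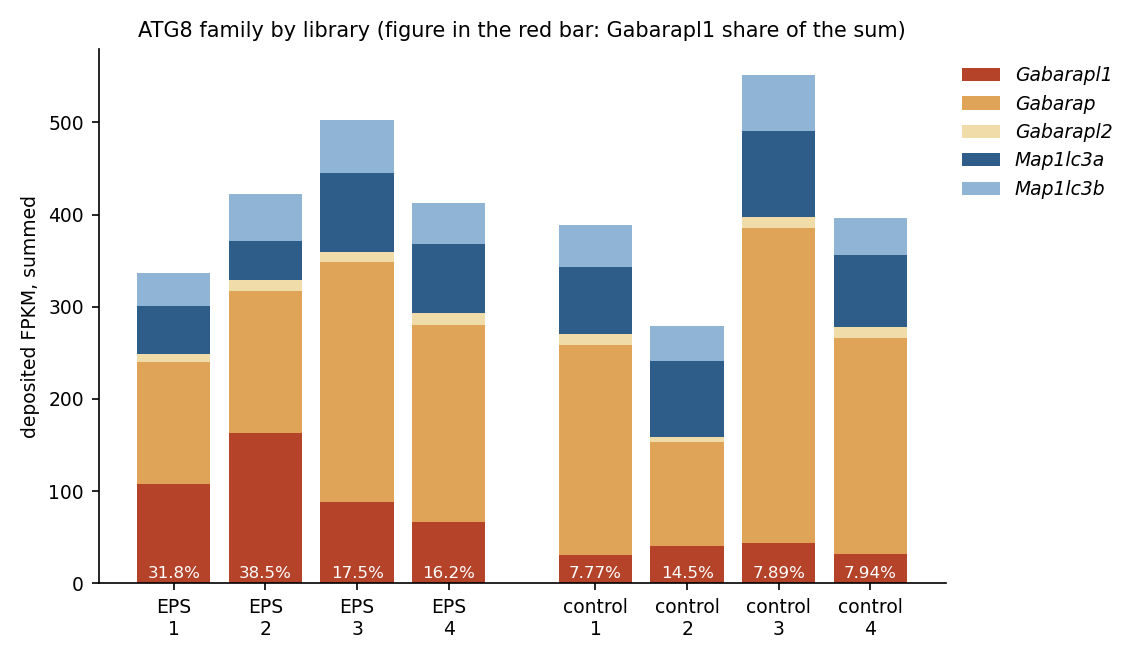
Deposited FPKM of the 5 ATG8 genes stacked for each library (EPS left, control right), with the share of Gabarapl1 printed in the lowest bar. That share runs from 16.2% to 38.5% in EPS and from 7.77% to 14.5% in control, while the height of the stacks overlaps between the groups.

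The other ATG8 genes and the enzymes that attach them did not pass in either fit, with log2 fold changes between -0.34 and 0.29 and adjusted p of 0.459 or above. Gabarap was at 143.8, 145.6, 249.5 and 208.1 CPM in EPS libraries and at 223.7, 99.4, 306.7 and 231.6 CPM in control libraries (log2 fold change -0.24, SE 0.30, adjusted p = 0.718). The same 2 EPS libraries in which Gabarapl1 was highest held the least Gabarap of the EPS group. Map1lc3b, which encodes the LC3 protein commonly used to count autophagosomes, was at 91.2 to 133.4 CPM in EPS and 76.7 to 141.8 CPM in control (log2 fold change 0.02), and Map1lc3a had a log2 fold change of -0.34. Gabarapl2 was at 12.1 to 15.9 CPM in EPS and 8.52 to 15.4 CPM in control. The E1-like enzyme Atg7, the E2-like enzyme Atg3 and the protease Atg4b had -0.06, -0.25 and -0.07. Atg5, Atg12 and Atg16l1, which together form the complex that places ATG8 on the membrane, had 0.04, 0.29 and 0.21.

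None of the 4 cargo receptors passed the threshold in the fits of all 8 libraries (0 at an unadjusted p under 0.05 by edgeR, 0 by DESeq2). Calcoco1, an LC3-binding receptor for autophagy of the endoplasmic reticulum, had 252.6, 310.7, 231.7 and 216.9 CPM in EPS libraries and 318.8, 440.4, 309.3 and 255.2 CPM in control libraries. The groups overlapped, and EPS was lower in each of the 4 same-numbered pairs (log2 fold change -0.37, SE 0.20, adjusted p = 0.357, and 0.0841 with the block). Calcoco1 fell with the block when the pair of the shallow library was left out (-0.34, adjusted p = 0.0403). Per length it was the most abundant of the 4 in control (75.4 FPKM, with Nbr1 at 58.6 FPKM), and Nbr1 was in EPS (65.3 FPKM, with Calcoco1 at 56.8 FPKM). Bnip3l, a receptor of mitochondria, had a log2 fold change of -0.27, while Nbr1 and Optn, which carry ubiquitin-tagged cargo, had 0.11 and 0.21. A ubiquitin receptor outside the 41 genes did rise. Sqstm1, which encodes p62, was at 1952, 2783, 1389 and 1187 CPM in EPS libraries against 458.2, 346.6, 469.8 and 382.5 CPM in control libraries (log2 fold change 2.14, SE 0.28, adjusted p = 0.00357). It kept its call in every alternative and with every library left out (highest adjusted p 0.024). It overlaps Mrnip on the opposite strand over 17.3% of its exonic length, a gene with an adjusted p of 0.673.

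The MiT/TFE transcription factors differed in sign. Per length, Tfe3 was the most abundant of the 3 in EPS (10.2 FPKM, with Tfeb at 5.09 FPKM) and Tfeb in control (7.93 FPKM, with Tfe3 at 4.91 FPKM). Tfe3 had 40.8, 45.9, 41.1 and 38.4 CPM in EPS libraries and 26.6, 2.84, 26.4 and 29.4 CPM in control libraries, where 2.84 CPM is 1 fragment. The EPS libraries lay close together and above every control library. The log2 fold change was 0.73 (SE 0.28, adjusted p = 0.186, and 0.0683 with the block), and Tfe3 rose without the shallow control replicate 2 (0.59, adjusted p = 0.0433) and with the block without pair 2 (0.53, adjusted p = 0.0127). Tfeb, the best studied regulator of lysosome genes, had 17.0, 7.86, 21.1 and 19.6 CPM in EPS libraries and 26.7, 14.2, 26.3 and 29.2 CPM in control libraries. Apart from the shallow library, with 5 fragments, every control library was above every EPS library. Its log2 fold change was -0.66 (SE 0.29, adjusted p = 0.264), and Tfeb fell with the block (-0.53, adjusted p = 0.0407). Mitf was at 17.0 to 33.3 CPM in EPS and 17.6 to 28.4 CPM in control (log2 fold change 0.26, adjusted p = 0.627). All of these are transcript levels, whereas TFEB and TFE3 are known to be controlled largely by movement of the protein between lysosome and nucleus, which RNA does not show.

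MiT/TFE factors bind the E-box CACGTG, and the form with T before and A after it, TCACGTGA, is the core of the CLEAR element known from lysosomal genes. Both read the same on either strand, and the second contains the first. RefSeq promoter windows of GRCm38.p6, from 250 bases before to 50 after the annotated start, were at hand for 33 of the 41 genes (40 windows). The bases before the start are shown for Gla and Gabarapl1, which were higher in EPS, and for Ctsd, which was higher with the block, since the first and last hold the CLEAR core and Gabarapl1 holds no E-box. The short stretches show the CLEAR core in members that did not pass and the plain E-box of Atg14. Starts are the RefSeq starts of the windows, which can lie inside the gene span used elsewhere. The E-boxes of Atg14, Atg7, Atp6v1a and Ctsl lie inside those spans, as do the CLEAR cores of Ctsd and Mcoln1. Capitals mark CACGTG, and all are written 5′ to 3′ along the gene.
Gla, chrX:134601006-134601255, minus strand: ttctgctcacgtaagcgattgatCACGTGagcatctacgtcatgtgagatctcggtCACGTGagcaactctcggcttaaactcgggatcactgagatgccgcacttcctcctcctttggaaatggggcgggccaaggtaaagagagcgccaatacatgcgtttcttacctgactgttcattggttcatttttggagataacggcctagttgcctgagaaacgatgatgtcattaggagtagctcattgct
Ctsd, chr7:142387828-142388077, minus strand: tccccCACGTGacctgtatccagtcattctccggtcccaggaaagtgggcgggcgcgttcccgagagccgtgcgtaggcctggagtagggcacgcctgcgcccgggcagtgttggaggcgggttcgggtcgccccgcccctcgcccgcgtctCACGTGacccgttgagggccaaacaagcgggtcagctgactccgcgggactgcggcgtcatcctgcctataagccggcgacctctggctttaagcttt
Gabarapl1, chr6:129532942-129533191, plus strand: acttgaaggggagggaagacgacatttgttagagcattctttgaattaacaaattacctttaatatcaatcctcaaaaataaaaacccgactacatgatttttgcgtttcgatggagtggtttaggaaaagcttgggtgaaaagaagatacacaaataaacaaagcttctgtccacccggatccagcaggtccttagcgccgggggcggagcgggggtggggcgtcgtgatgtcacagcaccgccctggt
Mcoln1, chr8:3500462-3500491, plus strand: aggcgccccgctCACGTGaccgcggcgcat
Atp6v1a, chr16:44139373-44139402, minus strand: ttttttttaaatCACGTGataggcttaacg
Atp6v0d1, chr8:105566050-105566079, minus strand: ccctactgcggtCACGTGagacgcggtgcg
Atg3, chr16:45158746-45158775, plus strand: ggagagtcgagtCACGTGaggccttaggtg
Atg14, chr14:47568418-47568447, minus strand: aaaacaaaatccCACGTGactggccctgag

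CACGTG was found in 11 of 40 member windows (27.5%), in 17.7% of 141 windows of other autophagy and lysosome genes and in 7.15% of all 32851 windows. The CLEAR core was in 6 of the 40 (15%), in 6.38% of the windows of the other pathway genes and in 0.974% of all windows. Gla had both of its E-boxes in this form, 227 and 194 bases before the start, and Ctsd had 1 of 2, 98 bases before it. Of the 6 genes with the CLEAR core, Gla was higher in the fit without the block and Ctsd in the fit with it. The other 4 had log2 fold changes of 0.18 (Atp6v1a), 0.10 (Mcoln1), -0.13 (Atp6v0d1) and -0.25 (Atg3). Lamp1 had 4 E-boxes in its window, none of them with the CLEAR core, and a log2 fold change of -0.07. The windows of Gabarapl1 and Wipi2 held neither motif, which says only that these letters are not in those 300 bases.

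**Figure D5:**
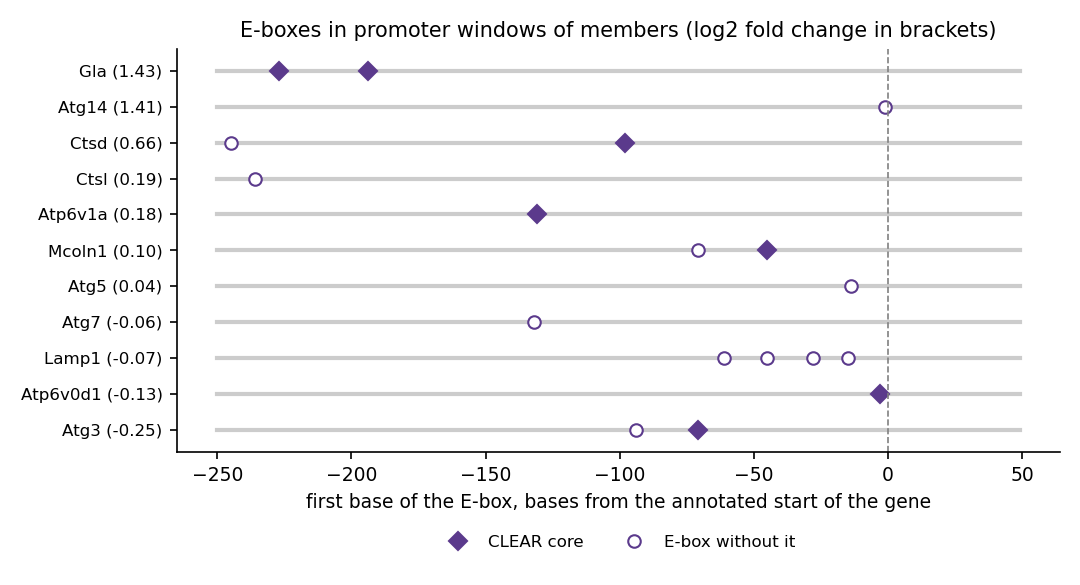
First base of each E-box (x axis, bases from the annotated start, which is the dashed line) in the promoter windows of the 11 genes that have one, ordered by log2 fold change of EPS over control, given in brackets; filled diamonds have the CLEAR core and open circles do not. Genes with the CLEAR core are spread from the top of the order (Gla, 1.43) to its end (Atg3, -0.25). Starts are the RefSeq starts of the windows, which can lie inside the gene span. The E-boxes of Atg14, Atg7, Atp6v1a and Ctsl lie inside it, as do the CLEAR cores of Ctsd and Mcoln1.

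Of the 13 lysosomal genes, Gla rose, and 3 rose with the block (23.1%, against 7.31% of all tested genes). For comparison, 2 of the 10 initiation genes did (20%). Gla, which removes terminal galactose from glycolipids and is the enzyme lacking in Fabry disease, had 28.6, 48.4, 23.8 and 17.1 CPM in EPS libraries and 13.4, 5.68, 11.3 and 9.18 CPM in control libraries. The groups did not overlap, and the value of 5.68 CPM is 2 fragments. The fitted fold change was 2.69 (log2 fold change 1.43, SE 0.33, adjusted p = 0.0441 by edgeR, and 1.12, adjusted p = 0.00447, with the block). As for Wipi2, the call was lost when EPS replicate 1 or any single control library was left out (adjusted p of up to 0.171), and the log2 fold change was 0.87 without EPS replicates 1 and 2. The gene (ENSMUSG00000031266) lies at chrX:134588149-134601125, minus strand.

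The aspartic protease Ctsd and the cysteine protease Ctsb, which degrade proteins in the lysosome, rose with the block. Ctsd, the most abundant of the 41 genes per length (840.3 ± 138.0 FPKM in EPS and 537.9 ± 97.0 FPKM in control, SD, n = 4 each), had 2355, 2139, 1865 and 1695 CPM in EPS libraries and 1648, 880.7, 1398 and 1153 CPM in control libraries. The lowest EPS library lay just above the highest control library. Its log2 fold change was 0.66 (SE 0.23, adjusted p = 0.149 by edgeR, and 0.68, adjusted p = 0.0246, with the block). Ctsb had 878.9, 991.9, 844.4 and 698.5 CPM in EPS libraries and 705.5, 480.1, 606.6 and 486.6 CPM in control libraries, where EPS replicate 4 lay below control replicate 1. Its log2 fold change was 0.58 (SE 0.19, adjusted p = 0.140 by edgeR, and 0.58, adjusted p = 0.0322, with the block). Ctsb shares 12.8% of its exonic length with Fdft1 on the opposite strand, which averaged 86.6 CPM in EPS and 138 CPM in control, and Ctsd shares 34.4% with Gm49369 on the same strand, a gene at 0.0772 CPM in EPS and 0 in control. Ctsl, another cysteine protease, was at 817.5 to 985.1 CPM in EPS and 642.7 to 1108 CPM in control (log2 fold change 0.19), with the highest control value in the shallow library. It rose with the block without pair 2 (0.34, adjusted p = 0.0448).

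The remaining lysosomal genes had log2 fold changes between -0.13 and 0.50 and adjusted p of 0.194 or above. Lamp1 and Lamp2, the main membrane glycoproteins, were close to level, with 530.8 ± 85.8 and 166.5 ± 32.2 FPKM in EPS and 533.7 ± 104.1 and 158.8 ± 14.0 FPKM in control (SD, n = 4 each; log2 fold change -0.07 for both). Of the proton pump (V-ATPase), the subunits Atp6v1b2 and Atp6v1h had 0.50 and 0.48, Atp6v1a 0.18 and the membrane subunit Atp6v0d1 -0.13. Atp6v1h had 104.2, 131.3, 75.6 and 74.5 CPM in EPS libraries and 63.0, 116.5, 61.6 and 54.7 CPM in control libraries, so that the groups overlapped only through the shallow control replicate 2. It rose with the block without pair 2 (0.48, adjusted p = 0.0186). Vps18, a core subunit of the tethering complex for fusion with lysosomes, had 100.6, 103.9, 75.0 and 71.6 CPM in EPS and 74.5, 45.5, 63.1 and 58.4 CPM in control (log2 fold change 0.49, SE 0.19), and it rose with the block without pair 2 (0.32, adjusted p = 0.0497). The calcium channel Mcoln1 and the small GTPase Rab7, which marks late endosomes, had 0.10 and 0.16.

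By role, the median log2 fold change was 0.17 for initiation and phagophore genes, -0.01 for conjugation, -0.08 for receptors, 0.26 for the 3 transcription factors and 0.19 for lysosomal genes. With the block the medians were 0.10, -0.01, -0.09, 0.10 and 0.22. Relative to the mean of control replicates 1, 3 and 4, the lysosomal median was 0.44, 0.63, 0.21 and 0.10 in EPS libraries. In control libraries it was 0.12, 0.06, 0.03 and -0.15, so EPS replicates 1 to 3 lay above all controls and EPS replicate 4 among them. The conjugation median was -0.22, -0.01, 0.06 and 0.02 in EPS libraries, within the control range of -0.51 to 0.07. Differences between roles were not tested.

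A further 144 genes of the same pathway were listed by function, and 140 of them were tested. Without the block 2 rose, Sqstm1 and Wdr45, and none fell (3 lower at an unadjusted p under 0.05, 1 lower by DESeq2), which was 1.43% against the background of 3.06%. Wdr45, another lipid-binding propeller protein of the WIPI family, had 42.8, 47.4, 30.8 and 27.4 CPM in EPS libraries and 19.9, 17.1, 19.1 and 16.9 CPM in control libraries. The groups were well apart (log2 fold change 1.00, SE 0.21, adjusted p = 0.0328), although Wdr45 was not past the threshold without EPS replicate 1 or control replicate 1, 3 or 4 (highest adjusted p 0.143). It shares 24.7% of its exonic length with Gm45208 on the same strand, so its fragments cannot be assigned with certainty. Gm45208 averaged 0.602 CPM in EPS and 2.48 CPM in control. The median of the 140 genes was 0.01.

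With the block, 8 of the 140 rose and 5 fell (9.29%, against 12.1% of all tested genes). Brackets here give edgeR's log2 fold change and adjusted p with the block. The higher genes beside Sqstm1 and Wdr45 included the lysosomal enzymes Hgsnat (0.76, 0.00695), Psap, the precursor of the saposins (0.53, 0.0406) and Gaa, acid alpha-glucosidase (0.52, 0.0493). Also higher were Fnip2, a partner of folliculin (0.63, 0.0111), the tethering factor Epg5 (0.77, 0.0356) and the V-ATPase subunit Tcirg1 (0.66, 0.0447). The V-ATPase subunits that fell were Atp6v1e1 (-0.54, 0.0356), Atp6v0e2 (-0.56, 0.0330) and Atp6v0d2 (-1.07, 0.0272). The protease Ctsc (-1.18, 0.0138) and the fusion protein Vamp8 (-0.59, 0.0467) fell too. Atp6v1e1 was at 117.8, 103.7, 126.2 and 132.8 CPM in EPS libraries and 177.2, 207.4, 168.2 and 160.6 CPM in control libraries, with no overlap. Ctsc and Atp6v0d2 were under 10 CPM in every library. The V-ATPase genes therefore held calls in both directions.

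The myotube label was checked against marker genes. The summed level of 14 myotube markers, myosins and Myog among them, was 18050 to 20780 CPM in EPS and 26950 to 30740 CPM in control. Without the block edgeR called none lower (8 at an unadjusted p under 0.05, 7 by DESeq2) and 9 were lower with it. Of all tested genes, 0.758% were lower without the block, 4.78% with it and 6.33% at an unadjusted p under 0.05. DESeq2 called 1.89% of its genes lower. The 7 markers of undifferentiated myoblasts summed to 599.0 to 798.1 CPM in EPS and 806.9 to 1052 CPM in control. Most of this was Megf10. EdgeR called none of the 6 tested lower (1 at an unadjusted p under 0.05, 1 by DESeq2), and with the block 2 fell, Spry1 (log2 fold change -1.31) and Heyl (-1.41). The 7 markers of dividing cells summed to 305.4 to 726.6 CPM in EPS and 408.9 to 899.6 CPM in control. Macrophage markers summed to 3.19 to 33.5 CPM in EPS and 3.20 to 8.52 CPM in control, with 8 of the 9 under 4 CPM in every deep library and 2 at 0 in all 8. Cd68, itself a lysosomal membrane protein, was at 8.09, 27.0, 2.07 and 2.12 CPM in EPS libraries and 1.46, 8.52, 1.89 and 1.48 CPM in control libraries. It passed in neither fit (adjusted p = 0.172 by edgeR, and 0.0708 with the block). The other macrophage marker tested, Itgam, went the other way and fell with the block (log2 fold change -1.76, adjusted p = 0.0426 by edgeR), at low levels. The part of the lower myotube marker level in the values of the 41 genes was not tested.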

How the data were processed

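RNA from EPS and control C2C12 myotubes was sequenced as 8 libraries of 2 lanes each (16 GEO samples), with a stranded total RNA kit per the labels' protocols. STAR 2.5.1, Cufflinks, Cuffdiff 2.2.1 and the build mm10 are named in the submitters' processing notes. Neither the annotation nor whether counting used strand was stated. The deposited values are, per the file headers, estimated counts (raw fragments per gene and library from Cuffdiff) and FPKM, scaled for length and depth. Of the estimated counts above 0, 93.3% were whole (tolerance 1e-06), and all were rounded. The 46 genes marked as skipped for too many fragments were left out, none of them among the 41.

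Symbols and positions came from a GENCODE annotation of mm10. Counts were filtered with filterByExpr (minimum count 10, minimum total 15), scaled by TMM and tested with edgeR 4.0.16's quasi-likelihood test (limma 3.58.1, R 4.3.3) with no covariate, adjusted over all genes. Standard errors were derived from the F statistic and are approximate, CPM use TMM-scaled library sizes, and fitted folds need not equal ratios of means. The script was tested on simulated counts. It recovered 32 of 98 genes changed 2-fold and 84 of 96 changed 4-fold, and it called 6 unchanged genes. Changes of 2-fold or less can thus be missed. Alternatives were DESeq2 1.42.0, RLE factors, other filters, the replicate block, limma on log2(FPKM + 0.1) and log2(FPKM + 1) for genes with a mean FPKM of at least 0.5, and each library left out. Replicate numbers come from the sample titles, with no statement of what they mark. Deviations of same-numbered libraries from their group means correlated at 0.300, 0.214, 0.286 and 0.297 across genes, so the numbers were taken to pair the libraries. EPS replicate 3 with control replicate 4 and EPS replicate 4 with control replicate 3 correlated at 0.253 and 0.231, so replicates 3 and 4 are hardly told apart by this. Floors of 3 fragments cover counting error only.

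The members, lists and rules were chosen with earlier results of these data known. Full values are given for members called in either fit, for the most abundant of each list, for up to 3 called genes of each further list and for Sqstm1; others named with values were chosen after their values were seen.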

Additional observations from a re-analysis of the deposited data

Results flagged for a closer look

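In 13 of the 82 groups of 4 libraries (41 genes in EPS and in control), 1 library stood far from the other 3 by Dixon's criterion, where chance alone flags about 1 in 20 groups. In 10 of the 13 this was control replicate 2, the library with 0.354 M fragments, whose values rest on few fragments. It was low for Ulk1 (65.3 CPM), Gabarapl2 (8.52 CPM), Atg7 (14.2 CPM), Atg16l1 (28.4 CPM) and Tfe3 (2.84 CPM). It was high for Atg14 (25.6 CPM), Uvrag (31.3 CPM), Atg3 (96.6 CPM), Mitf (28.4 CPM) and Atp6v1h (116 CPM). The remaining 3 were EPS replicate 2, which was high for Becn1 (169 CPM) and low for Wipi1 (83.4 CPM) and Atg4b (28.6 CPM).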

How the results depend on the processing

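Members called higher were 3 with edgeR, RLE factors and both other filters, 4 with DESeq2, 1 with limma on log2(FPKM + 0.1) and on log2(FPKM + 1), and 6 with the replicate block. Leaving out 1 library gave 0 to 4, with 0 when control replicate 1 was missing, 1 when EPS replicate 1 or control replicate 3 or 4 was, and 2 when control replicate 2 was. Members called lower were 0 in all of these except the block, with 1. Of other pathway genes, 2 were higher and 0 lower, against 8 and 5 with the block, 5 and 1 with DESeq2 and 1 and 0 with either limma fit. Leaving out 1 library gave 1 to 3 higher and 0 lower. Apart from the calls named in the report, the block changed no other call of a member. Chosen after seeing the data, a fit without EPS replicates 1 and 2 together left 1 member (Gabarapl1) and 1 other gene higher. A block without pair 2, chosen likewise, called 10 members higher and 2 lower and 10 and 6 other genes. Shares of all tested genes were taken only for edgeR with all libraries, DESeq2 and the block fits. Counts from the other fits, those with libraries left out among them, therefore have no background beside them. Across all genes the block called 1691 against 428. The cause of these shifts was not tested. The median log2 fold change of members stayed between 0.02 and 0.16 with 1 library left out. It was 0.01 without EPS replicates 1 and 2 together, and 0.04 with the block without pair 2. With all libraries and no block, the median over all tested genes was 0.01. Of the 13 genes with full values, 1 changed sign in any alternative, Gabarap, to 0.0178 without EPS replicates 1 and 2. In that fit 12 of the 41 members had another sign than with all libraries, none of them called in either. Depth limits control replicate 2, where 3 fragments are 8.52 CPM.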

Other observations

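Among the 13 genes that were higher in EPS in all 4 same-numbered pairs, beside the genes already called, were the lipid transfer protein gene Atg2a, the conjugation genes Atg12 and Atg16l1, Tfe3, Vps18 and the V-ATPase subunits Atp6v1b2 and Atp6v1h. The 5 are Tfeb, Ulk2, Wipi1, Map1lc3a and Calcoco1. Within these pairs the log2 difference of Gabarapl1 was 1.85, 2.67, 1.02 and 1.07, that of Gla 1.09, 3.06, 1.07 and 0.89, and that of Tfeb -0.64, -0.84, -0.31 and -0.57. The second pair rests on the shallow control library.

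The core of the antioxidant response element, TGACNNNGC on either strand, was in 17.5% of member windows, 17.0% of windows of the other pathway genes and 12.4% of all windows. The members with a match were Atg13, Atp6v1a, Ctsd, Map1lc3b, Mitf, Rab7 and Ulk2, of which Ctsd was higher with the block and none was called without it.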
